A study of Ovis aries with 40 samples.

Results

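The genes described here are the named genes whose signal in sheep longissimus dorsi, the long muscle of the back, was lower late in gestation than in mid gestation in both breeds studied. They were chosen from the deposited table of log2 values. The 1605 probes that carry a gene name, for 971 genes, were ranked by the smaller of the falls from 70 to 135 d in Texel and in Ujumqin fetuses, and the first 100 were taken. Ribosomal protein, collagen, TNC, cyclin, CDK, IGF, MYL, TNN, TPM, globin, immunoglobulin, MHC and myogenic factor genes were then left out. This removed 10 probes and left 90 probes of 65 genes out of 15008 probes on the array. The 10 probes belonged to IGFBP2, CDK1, CCND2, MYF5, CCNA2, IGF2 and IGF-IIR. The last probe inside the threshold was that of OXT, the oxytocin precursor, at rank 100 with a smaller fall of 1.34 on the log2 scale, and the first outside it was that of CDKN1C, a cell cycle inhibitor, at rank 101 with 1.34. Since the arrays of 70 and 135 d chose these genes, their values at those stages are given as a description and were not tested.

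RNA of 1 animal was hybridized to each of 40 one-colour Agilent arrays, with no pooling and no treatment that differed between groups. The fetuses were purebred Texel, aged 70 d (T70), 85 d (T85), 100 d (T100), 120 d (T120) or 135 d (T135), and purebred Ujumqin of those ages (U70 to U135), with 3 animals per group and 4 in T100. Ujumqin lambs were taken at birth, 1 month and 2 months, with 3 animals each. By the labels, the T120 fetuses were all male. The U120 and U135 fetuses and the lambs of 2 months were all female, while every other group held both sexes. By the methods 3 ewes of each breed were used at a stage, so some of the 4 fetuses in T100 would share a dam, though the labels do not give the dams. The fetuses were fitted as separate animals, and p-values measure only the spread between these animals. The median processed signal of an array lay between 233.6 and 708.3 on the 31 arrays of fetuses and between 217.6 and 359.1 on the 9 of lambs, with 79.3% to 90.9% of spots well above background. The arrays came from 5 slides. Longissimus dorsi is skeletal muscle, and 11 of 13 probes for mature muscle fibre genes were higher at 120 than at 85 d, beside 17.4% of all tested probes, with a median difference of 1.30.

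Late in gestation, muscle precursor cells of the sheep leave the cell cycle and fuse, and the fibres that have formed grow and replace fetal proteins with mature ones. Genes of dividing nuclei, of the cytoskeleton that is not part of the sarcomere and of fetal growth signals are known to decline in muscle during this period. RNA from a piece of muscle also carries transcripts of connective tissue, tendon, nerve, vessel and blood, so that fewer cells of a type and less RNA per cell cannot be told apart here.

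Most of these genes were read by a pair of probes of 60 bases, and how much the probes of a pair share sets how far they are separate measurements. Among the 25 genes with 2 probes on the list, the pair had a common run of 30 bases or more in 15 genes and of 20 or fewer in 10 genes. The probes of IL1A, TNMD and AT2 are shown because both probes of each ranked among the first and share at most 5 bases in a row, and that of OSTN because a single probe read this gene. The probes of GRIA1 are shown because they share 59 bases, which are in capitals, and gave different values. No bases are marked in the others.
IL1A probe 1: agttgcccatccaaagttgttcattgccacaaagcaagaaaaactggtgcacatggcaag
IL1A probe 2: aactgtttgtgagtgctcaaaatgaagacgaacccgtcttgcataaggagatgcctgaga
TNMD probe 1: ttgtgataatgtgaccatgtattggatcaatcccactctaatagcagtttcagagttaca
TNMD probe 2: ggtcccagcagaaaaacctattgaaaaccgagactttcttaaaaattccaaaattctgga
AT2 probe 1: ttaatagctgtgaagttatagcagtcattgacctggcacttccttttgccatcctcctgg
AT2 probe 2: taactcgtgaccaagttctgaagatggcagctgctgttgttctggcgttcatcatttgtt
OSTN probe 1: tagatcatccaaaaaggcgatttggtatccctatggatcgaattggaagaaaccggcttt
GRIA1 probe 1: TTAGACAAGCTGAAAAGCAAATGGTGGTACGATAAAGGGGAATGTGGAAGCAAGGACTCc
GRIA1 probe 2: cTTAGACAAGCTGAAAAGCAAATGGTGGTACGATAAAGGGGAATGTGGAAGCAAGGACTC

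At 70 d the median log2 signal over the 90 probes was 8.99, close to the 8.96 of all probes, and single probes ranged from 2.40 to 18.06. Of the 90 probes, 83 were well above background on all 6 arrays of 70 d, while 54 were on all 6 arrays of 135 d and 19 on none of them. The median over the probes was 9.0 in T70, 8.42 in T85, 7.72 in T100, 6.89 in T120 and 6.23 in T135. In Ujumqin sheep it was 8.93 in U70, 8.53 in U85, 8.04 in U100, 7.36 in U120, 6.63 in U135, 6.19 at birth, 5.56 at 1 month and 5.44 at 2 months. The quantile normalization keeps the median of all probes at 8.98 in each group, so these levels are relative to the other probes. Scaling the arrays by their 75th percentile instead, 73 of the tested probes on the list fell from 85 to 120 d, beside 3448 of all 14275 tested.

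**Figure D1:**
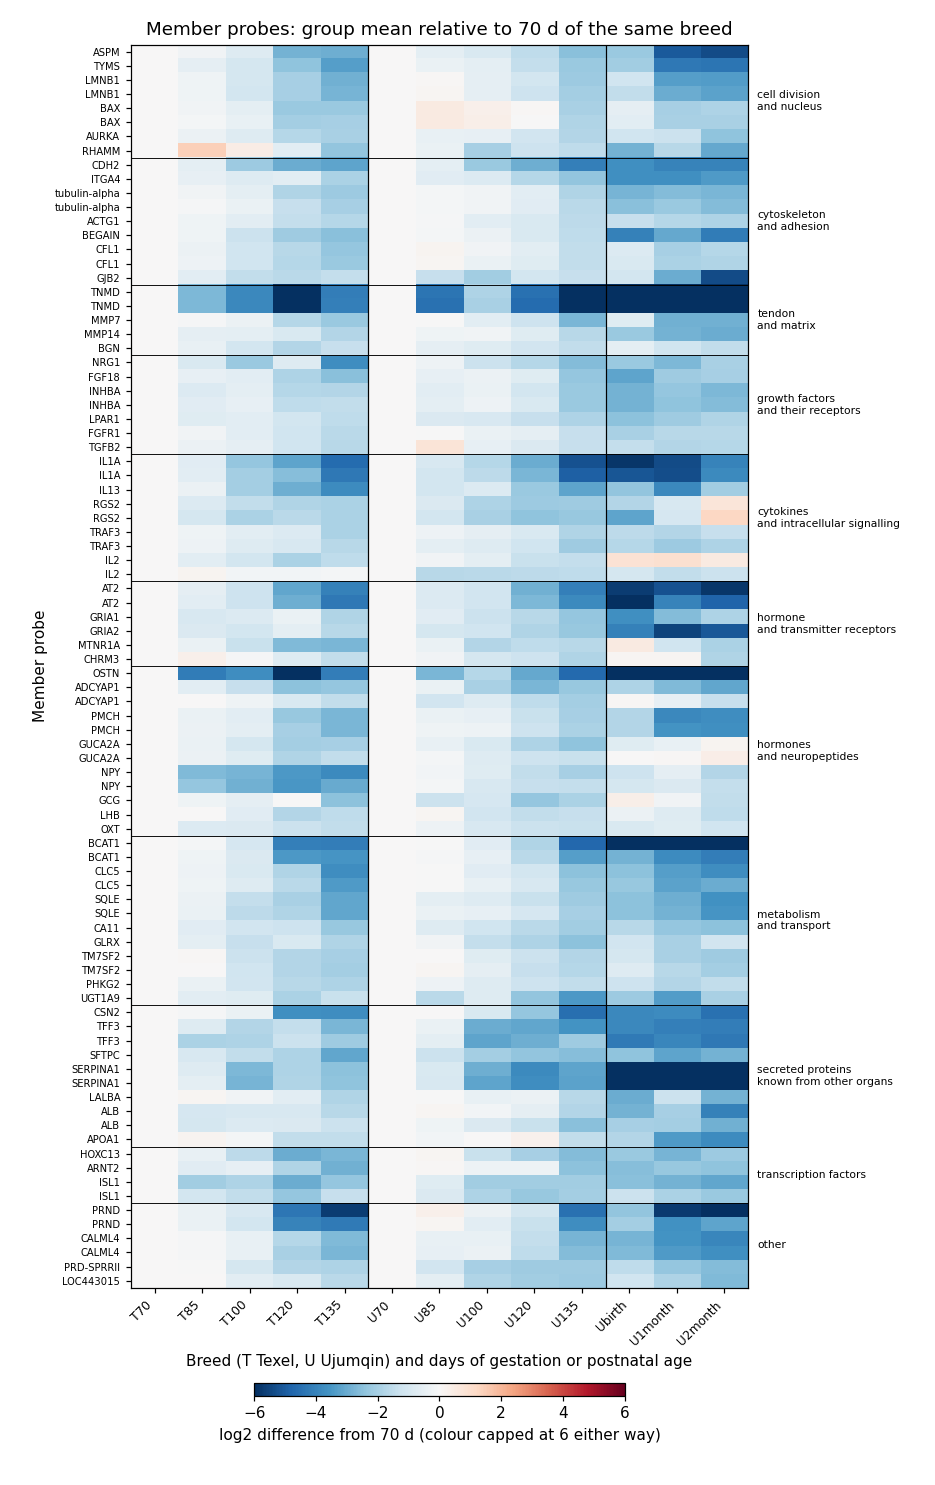
Group mean log2 signal of 88 of the 90 probes (rows, by role) minus the mean at 70 d of the same breed, in the 13 groups of breed and age (columns). Blue is lower than at 70 d, the colour stops at 6 either way, and the columns at 135 d are the ones that chose the probes. In most rows the columns of 120 d are already blue and those after birth stay so.

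The 19 arrays of 85, 100 and 120 d took no part in the choice, and in them the fall was tested. The first question was whether the genes also fell between 85 and 120 d. Averaged over breeds, 71 of 89 tested probes, for 52 genes, fell at an adjusted p under 0.05 by limma, and all 89 differences were below 0. Over all 14275 tested probes 21.7% fell, and 7718 differences were below 0. The median difference was -1.23 over these probes and -0.05 over all tested. Texel fetuses gave 59 falls with a median of -1.37, beside 19.5% of all probes, and Ujumqin fetuses 36 with a median of -1.01, beside 7.5% of all probes. The 120 d arrays of both breeds lay below every 85 d array for 45 of the 89 probes, beside 8.75% of all tested. The second probe of IL2 did not pass the filter on dim probes and was not tested.

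Slide and stage overlapped in part, since no slide held arrays of both 85 and 120 d. With slide as a block the median difference was -0.78 and 80 of 89 were below 0, but 0 were called by limma. An unadjusted p under 0.05 was found for 18, beside 1251 of all 14275 tested, and the median standard error rose from 0.26 to 0.64. Of all probes 0.028% were called lower in that fit, and among the 71 calls those of CHRM3, RHAMM, MMP7, PRD-SPRRII and 1 of ISL1 turned above 0. Leaving out 1 array ended 7 of the 71 calls, those of RHAMM, TFF3, MMP7, GLRX, ARNT2 and 1 probe each of NPY and ISL1. Arrays on the same slide could be compared over shorter steps. Slide 2 held 1 array of 100 d, a Texel one, and 4 of 85 d from both breeds. There 84 of 90 probes were lower at 100 d, with a median of -0.58, while 51.0% of all tested probes were lower. Its Texel arrays alone, 1 per stage, gave 77 lower with a median of -0.43, beside 50.1%. On slide 4, with 2 Ujumqin arrays of 100 d and 5 arrays of 120 d from both breeds, 81 of 90 were lower at 120 d. The median was -0.74, and 53.3% of all tested were lower. On slide 3, with 4 arrays of 100 d from both breeds and 1 Texel array of 120 d, 69 were lower, beside 55.0%, with a median of -0.43. The Ujumqin arrays of slide 4 alone gave 82 lower at U120 than at U100, beside 51.05%, with a median of -0.51.

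Of the 89 tested probes on the list 79.8% fell, and the counts by role given from here on stand beside that share. All 8 probes for genes of dividing cells and the nucleus, ASPM, AURKA, TYMS, LMNB1, RHAMM and BAX, were called, with a median of -1.44. ASPM, a spindle protein of dividing precursor cells, read 10.35, 10.36 and 10.53 in T85 and 9.23, 7.19 and 6.96 in T120. In Ujumqin it read 10.36, 10.47 and 10.22 in U85 and 9.63, 9.37 and 9.33 in U120. The stages did not overlap in either breed, and the first T120 array lay apart from the other two, near the U120 arrays. ASPM fell by 1.77 over both breeds (SE 0.28, adjusted p = 1.58e-04). TYMS, thymidylate synthase, which makes a building block of DNA, fell by 1.44 (SE 0.18, adjusted p = 2.53e-05), and AURKA, a mitotic kinase, fell by 1.04 (SE 0.22, adjusted p = 0.00137). Both probes of LMNB1, lamin B1 of the nuclear envelope, fell, by 1.44 and 1.55. BAX, which promotes cell death, was grouped with them and fell by 1.24 and 1.23 at probes that share 59 bases. On a wider list of genes for DNA replication and division, all 11 probes of 10 genes fell with a median of -0.92, beside 21.7% of all tested. Of these, 2 probes, for AURKA and TYMS, are among the 90. Those of CDK1, CCND2 and CCNA2 ranked 28, 32 and 42 before the families were left out. The list is therefore in part chosen by the same fall and is not separate from the 90.

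Among genes of the cytoskeleton and adhesion 7 of 9 tested probes fell. ACTG1, a cytoplasmic actin, fell by 0.99 (SE 0.14, adjusted p = 5.33e-05), from 16.18, 16.32 and 16.37 in T85 to 15.59, 14.68 and 15.13 in T120 and from 16.33, 16.39 and 16.09 in U85 to 15.52, 15.42 and 15.37 in U120. Of the ACTG1 probes that are not on the list, that with a median level of 16.26 fell by 0.63 (adjusted p = 7.89e-04). The brighter one, with a median level of 18.15, changed by -0.11 (adjusted p = 0.308). CFL1, cofilin, which cuts actin filaments, fell by 1.07 and 1.14, and LOC100101229, annotated as tubulin-alpha, by 1.06 and 0.92. CDH2, N-cadherin, which joins myoblasts, was at a low level. It read 4.46, 3.38 and 4.45 in T85, of which the second was not well above background, and 5.08, 4.97 and 4.80 in U85. It was not well above background on any array of 120 d, where CDH2 was at least 4.23-fold lower (adjusted p = 1.91e-04). BEGAIN, a protein first found at synapses, fell by 1.33 (SE 0.19, adjusted p = 7.48e-05). ITGA4, an integrin, changed by -0.58 (adjusted p = 0.151) and GJB2, a gap junction protein, by -0.35 (adjusted p = 0.314).

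TNMD, tenomodulin, a membrane protein of tendon, had the largest SD within a group of all 90 probes, 4.66 in T135 at probe 2. Probe 2 read 13.99, 15.70 and 13.40 in T70, 13.27, 10.64 and 11.08 in T85, 8.35, 9.03, 11.13 and 13.40 in T100, 8.64, 8.69 and 5.90 in T120, and 11.93, 4.95 and 13.78 in T135. In Ujumqin it read 12.44, 15.30 and 15.12 in U70, 9.29, 11.05 and 9.38 in U85, 13.30, 13.37 and 10.57 in U100, 12.88, 7.68 and 8.83 in U120, and 3.42, 6.21 and 8.31 in U135. All U100 readings but 1 lay above those of U85, and the ranges of U100 and U120 overlapped. The fall from T85 to T120 was called at both probes, at -4.08 (SE 1.45, adjusted p = 0.0402) and -3.92 (SE 1.42, adjusted p = 0.0437), calls lost under 10 and 16 of 33 alternatives, while U120 differed from U85 by -0.11 at each (adjusted p = 0.973), and the difference between breeds was not called (adjusted p = 0.367 and 0.374). The breed average was not called either, at -2.10 (adjusted p = 0.118) and -2.02 (adjusted p = 0.124).

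OSTN, musclin, a peptide secreted by muscle and bone, followed a like course. It read 7.93, 6.62 and 7.11 in T85, 5.52, 7.0, 8.51 and 9.76 in T100 and 6.01, 5.53 and 3.46 in T120. On the 4 T100 arrays the order from low to high was the same for OSTN as for TNMD, and in T135 the array with the lowest OSTN, 4.66, was also the one with the lowest TNMD, 4.95, and the array with the highest, 10.84, the one with the highest TNMD, 13.78. OSTN changed by -1.27 over both breeds (SE 0.69, adjusted p = 0.158). On the fixed list of fibroblast and tendon markers, whose 7 probes include the pair for TNMD, the summed signal, in units of 1000, ranged from 39.5 to 184 in T70 and from 24.0 to 164 in U70, from 12.55 to 39.1 in T85 and from 8.62 to 12.85 in U85, from 9.21 to 43.1 in T100 and from 12.6 to 48.3 in U100, from 5.11 to 7.64 in T120 and from 5.52 to 31.5 in U120, and from 3.17 to 47.4 in T135 and from 3.16 to 4.81 in U135. The sum is of linear signals, so the TNMD pair weighs much in it where TNMD is bright, and it is not a measure separate from TNMD. No sum without the pair was made. The part of tendon or other connective tissue in the dissected muscle in the values of TNMD and OSTN was not tested.

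The other matrix genes were steadier. BGN, biglycan, a small proteoglycan, fell by 0.99 (SE 0.14, adjusted p = 5.58e-05), from between 8.46 and 9.25 on the 6 arrays of 85 d to between 7.12 and 8.0 on those of 120 d. MMP14, a membrane metalloproteinase, fell by 0.44 (SE 0.14, adjusted p = 0.0182), and MMP7, a secreted one, by 1.45 (SE 0.47, adjusted p = 0.024). Neither was called at its probe that is not on the list, which changed by -0.19 for MMP14 (adjusted p = 0.493) and -0.86 for MMP7 (adjusted p = 0.126). On the fixed list of non-collagen matrix genes, 8 of 16 tested probes fell and 2 rose, beside 21.7% and 17.4% of all tested. The median was -0.29, and BGN and MMP14 are on that list.

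Growth factors and their receptors fell by smaller amounts, with 6 of 7 probes called and a median of -0.68. TGFB2, a transforming growth factor, fell by 1.24 (SE 0.21, adjusted p = 2.96e-04), and in U85 it read 12.86, 14.48 and 14.17, with 2 of 3 arrays above the highest of U70, 13.17. FGF18, a fibroblast growth factor, read 10.87, 10.56 and 10.58 in T85, 9.73, 8.94 and 9.21 in T120, 10.43, 10.71 and 10.57 in U85 and 10.29, 10.15 and 10.48 in U120. Its Texel stages were apart and its Ujumqin stages overlapped. FGF18 fell by 0.82 (SE 0.15, adjusted p = 4.98e-04) over both breeds. FGFR1, a receptor of this family, fell by 0.75, INHBA, a subunit of activin and inhibin, by 0.68 and 0.57, and LPAR1, a lysophosphatidic acid receptor, by 0.45. NRG1, neuregulin, a ligand of ERBB receptors, changed by -0.65 (adjusted p = 0.251).

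IL1A, the cytokine interleukin 1 alpha, had the largest smaller fall of the list, 4.61. Probe 1 read 8.09, 8.55 and 7.67 in T85 and 4.48, 6.33 and 6.10 in T120, and 7.74, 8.17 and 6.97 in U85 and 5.35, 5.89 and 5.50 in U120. Every array of 120 d lay below every array of 85 d. IL1A fell by 2.25 (SE 0.29, adjusted p = 3.18e-05) at probe 1 and by 1.78 (SE 0.30, adjusted p = 2.67e-04) at probe 2. The other interleukins were dim. IL13 read 5.30, 5.11 and 5.46 in T85 and 5.41, 5.22 and 3.05 in U85. It read 2.69 and 2.73 on the 2 measured arrays of T120 and 3.58, 3.22 and 3.51 in U120, none of them well above background (adjusted p = 7.03e-04). IL2 was well above background on 2 of 3 arrays of T85 and on none of T120, U85 or U120. IL2 was at least 2.37-fold lower in T120 than in T85 (adjusted p = 0.0193), a call lost under 9 of 32 alternatives, among them leaving out T85 replicate 1 or 2 or T120 replicate 2. The breed average was also called (adjusted p = 0.00264), with no fold since both Ujumqin groups were below background, and was lost at a floor of 16, with normexp and with slide as a block. RGS2, which limits G protein signalling, fell by 1.17 (SE 0.20, adjusted p = 3.65e-04) and 0.91 (SE 0.19, adjusted p = 0.00154), and at both probes only the step from 85 to 100 d was called. TRAF3, an adaptor of TNF receptors, changed by -0.60 and -0.65 (adjusted p = 0.0934 and 0.101).

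AT2, the angiotensin II type 2 receptor, a receptor known to be abundant in fetal tissues, had the smallest adjusted p-values of the 89 probes. Probe 2 read 8.89, 9.5 and 9.31 in T85, 8.56, 8.61, 8.66 and 8.32 in T100, and 6.40, 7.11 and 6.40 in T120. It read 9.34, 9.43 and 9.18 in U85, 8.98, 8.65 and 9.21 in U100, and 6.87, 7.32 and 7.58 in U120. Every array of 120 d lay below every array of 85 and 100 d in both breeds. AT2 fell by 2.33 (SE 0.16, adjusted p = 9.16e-08) at probe 2 and by 2.10 (SE 0.13, adjusted p = 2.56e-08) at probe 1, and from 100 to 120 d alone by 1.80 and 1.63. With slide as a block the differences were -2.47 and -1.94, with an adjusted p of 0.0935 at each.

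The remaining receptors of hormones and transmitters were near background. MTNR1A, a melatonin receptor, was at least 2.23-fold lower at 120 d (adjusted p = 0.00257), and CHRM3, a muscarinic acetylcholine receptor, fell by 1.06 (SE 0.32, adjusted p = 0.0153), with 1 of 6 arrays of 120 d well above background. Both calls were lost at a floor of 16 and with normexp. With slide as a block CHRM3 changed by 0.13. GRIA2 and GRIA1, subunits of glutamate receptors, had the smallest differences of the list, -0.23 (adjusted p = 0.383) and -0.22 (adjusted p = 0.697). The probe of GRIA1 that is not on the list, which differs by a shift of 1 base, changed by 0.21 (adjusted p = 0.66) and was well above background on 23 of 40 arrays.

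Among hormones and neuropeptides 9 of 12 probes fell. LHB, the beta subunit of luteinizing hormone, read 14.18, 14.02 and 14.48 in T85, 13.20, 12.86 and 11.19 in T120, 14.33, 14.45 and 13.77 in U85 and 12.05, 12.65 and 13.07 in U120. LHB fell by 1.70 (SE 0.29, adjusted p = 3e-04), and the other probe of LHB, which shares 6 bases with it and is not on the list, fell by 0.54 (adjusted p = 0.0333). PMCH, the melanin-concentrating hormone precursor, fell by 1.42 and 1.28, and GUCA2A, guanylin, a gut peptide, by 1.52 and 1.28. NPY, neuropeptide Y, fell by 1.23 (SE 0.24, adjusted p = 9.9e-04) and 1.06 (SE 0.34, adjusted p = 0.0201). In T70 NPY read 12.57, 10.71 and 10.25, against 8.61, 8.13 and 8.82 in T85 and 9.13, 9.39 and 9.13 in U70, so the T70 arrays of NPY lay apart from all of these. OXT fell by 0.76 (SE 0.14, adjusted p = 4.87e-04). GCG, the glucagon precursor, changed by -0.38 (adjusted p = 0.468), and ADCYAP1, the neuropeptide PACAP, was at least 3.04-fold lower at 1 probe (adjusted p = 0.016) and changed by -0.65 at the other (adjusted p = 0.162).

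Metabolic and transport genes gave 13 of 14 calls with a median of -1.16. BCAT1, the cytosolic aminotransferase of branched-chain amino acids, read 11.68, 11.62 and 11.01 in T85, 10.96, 9.90, 10.77 and 10.53 in T100 and 9.57, 6.82 and 6.02 in T120 at its first-ranked probe. It read 11.22, 11.78 and 11.43 in U85, 10.85, 10.57 and 11.09 in U100 and 9.29, 9.94 and 9.84 in U120. The T120 arrays spread over more than 3 log2 units, with the first of them beside the U120 arrays. BCAT1 fell by 2.88 (SE 0.43, adjusted p = 9.95e-05) and by 2.38 (SE 0.39, adjusted p = 2.08e-04) at a probe that shares 9 bases with it. The sterol genes SQLE, squalene epoxidase, and TM7SF2, a sterol reductase, fell at both of their probes, TM7SF2 by 1.54 (SE 0.18, adjusted p = 1.34e-05) and 1.66 and SQLE by 1.17 and 1.01. TM7SF2 was called from 85 to 100 d at both probes. PHKG2, a subunit of phosphorylase kinase, which starts glycogen breakdown, fell by 1.11 (SE 0.13, adjusted p = 9.39e-06). CLC5, a chloride channel, fell by 1.30 and 1.15, GLRX, glutaredoxin, by 0.97 and CA11, a protein related to carbonic anhydrases, by 0.71. UGT1A9, a glucuronosyltransferase, changed by -1.01 (SE 0.49, adjusted p = 0.116).

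Genes known as secreted proteins of other organs gave 5 calls in 10. The probe of CSN2, beta-casein, a milk protein, had the largest difference of the list and fell by 2.97 (SE 0.34, adjusted p = 9.13e-06). It read 13.82, 14.16 and 14.06 in T85, 13.81, 14.02, 13.07 and 13.92 in T100 and 11.76, 10.34 and 9.17 in T120. In Ujumqin it read 14.51, 14.88 and 14.57 in U85, 14.41, 13.24 and 13.55 in U100 and 11.91, 12.69 and 12.35 in U120. The other CSN2 probe of the array holds the run tgactgcgactggaaatatggcaacttttc of 30 bases in common with it, shown because it is the part on which the probes could read the same transcript, and was well above background on 0 of 40 arrays. The signal of the listed CSN2 probe is therefore reported as that of the probe. SERPINA1, alpha-1-antitrypsin, a plasma protease inhibitor, fell by 1.99 (SE 0.33, adjusted p = 2.55e-04) and 1.97 at its probes, and from 85 to 100 d alone by 1.99 and 2.18. In T120 SERPINA1 read 7.36, 8.15 and 9.71. SFTPC, a lung surfactant protein, fell by 0.99 (adjusted p = 0.00786), while its other probe, which shares 5 bases with it, changed by 0.19 (adjusted p = 0.14). ALB, albumin, changed by -0.31 and -0.42, LALBA, alpha-lactalbumin, by -0.55, and APOA1, an apolipoprotein, by -0.61, none of them called, and TFF3, a trefoil factor, fell at 1 of 2 probes.

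All 4 probes for transcription factors fell. HOXC13, a homeobox factor, read 3.82, 5.38 and 4.39 in T85 and 4.87, 3.76 and 4.77 in U85 and was not well above background on any array of T120 or U120, where HOXC13 was at least 3.86-fold lower (adjusted p = 1.02e-04). ISL1, a LIM homeobox factor, fell by 1.11 and 1.32, and ARNT2, a bHLH-PAS factor, by 0.77 (SE 0.25, adjusted p = 0.0234). PRND, doppel, a relative of the prion protein, read 11.58, 11.01 and 10.26 in T85, 10.30, 10.88, 10.58 and 9.88 in T100 and 8.51, 5.56 and 6.95 in T120 at its first-ranked probe. It read 10.49, 11.60 and 11.04 in U85, 10.99, 10.31 and 9.84 in U100 and 10.25, 9.16 and 9.5 in U120. PRND fell by 2.67 (SE 0.41, adjusted p = 1.28e-04) and, at a probe that shares 5 bases with it, by 2.55 (SE 0.33, adjusted p = 2.88e-05). CALML4, a calmodulin-like protein, fell by 1.30 and 1.46, and LOC443015 by 1.23, while PRD-SPRRII, a small proline-rich protein, was at least 2.12-fold lower (adjusted p = 0.0127).

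**Figure D2:**
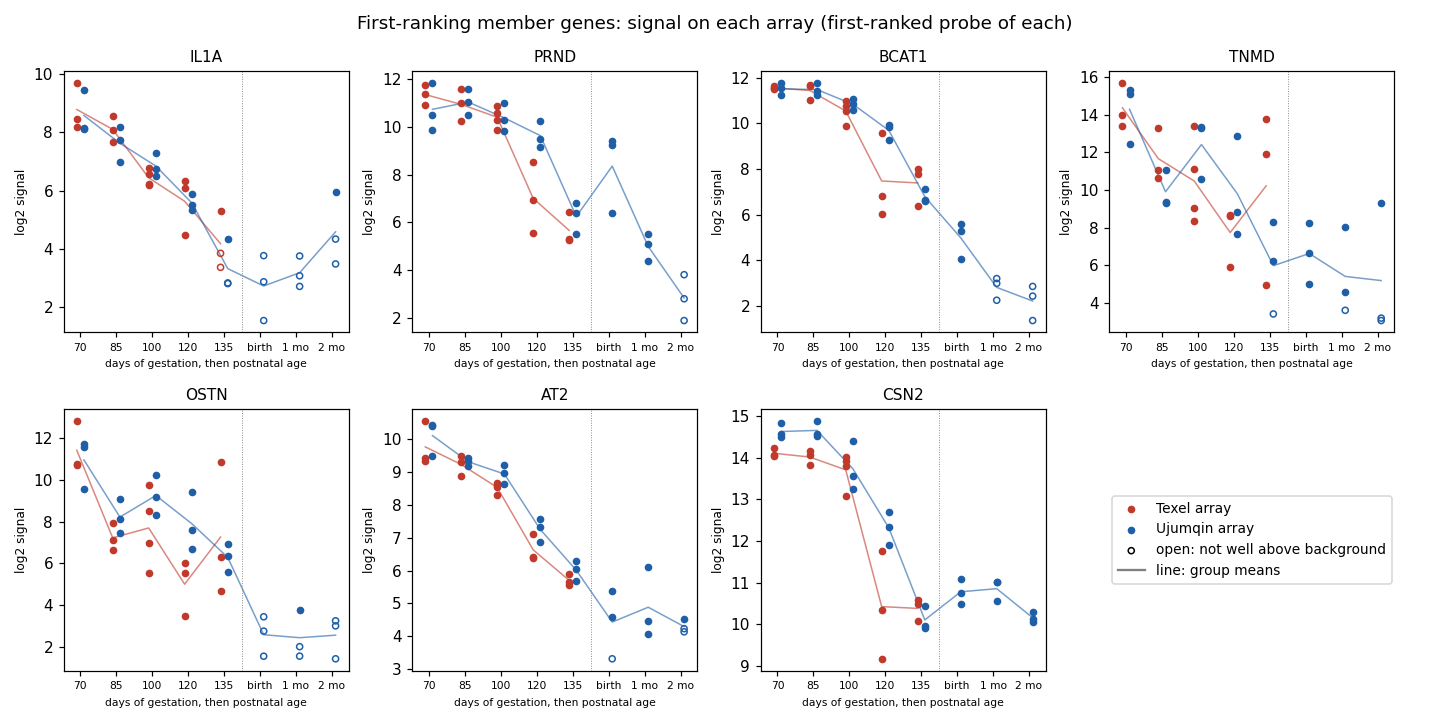
Log2 signal on each of the 40 arrays (points) against age for the 7 genes that ranked first, each at its first-ranked probe, with Texel in red, Ujumqin in blue, lines through the group means and open points for spots not well above background. AT2 and CSN2 fell mainly after 100 d, the group means of IL1A declined from each stage to the next up to birth and were higher again at 2 months, and the TNMD arrays of 1 group spread over several log2 units.

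By step, 25 probes of 89 fell from 85 to 100 d with a median of -0.51, beside 7.98% of all tested, and 37 fell from 100 to 120 d with a median of -0.67, beside 8.35%. The earlier step held the calls for SERPINA1 and RGS2 at both probes, and the later step those for AT2, PRND, BCAT1 and CSN2. The earlier count was 15 without U85 replicate 1, U85 replicate 2 or U100 replicate 2, and the later count was 53 without T120 replicate 1. Where a gene had 2 tested probes on the list, both fell from 85 to 120 d in 19 of 24 genes, 1 did in ADCYAP1 and TFF3, and neither did in 3 genes. A further 24 tested probes of these genes are on the array but not on the list, and 13 of them fell and 0 rose, with a median of -0.67. Of all tested probes 21.7% fell and 17.4% rose.

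The breeds were compared over the same 19 arrays. Averaged over 85, 100 and 120 d, Texel was lower at 71 of 89 probes, beside 7874 of all 14275 tested. The median was -0.32, beside -0.03 over all probes. An unadjusted p under 0.05 was found for 38, beside 2880 of all 14275 tested. After adjustment 1 was higher in Texel, beside 0.995% of all tested, and 1 was lower, beside 2.0%. Without T120 replicate 1, 1 was higher and 25 were lower, beside 3.32% and 5.64%. INHBA was lower in Texel by 0.43 at 1 probe (SE 0.10, adjusted p = 0.04), reading 10.58, 10.56 and 10.43 in T120 and 11.17, 11.29 and 11.25 in U120. Its other listed probe, which shares 59 bases, was not called. IL2 was called higher in Texel (adjusted p = 0.0326), but it was well above background on 3 of 10 Texel and 0 of 9 Ujumqin arrays of these stages, so no fold is given. The calls for INHBA and IL2 were lost under 16 of 33 and 16 of 32 alternatives. Per stage, limma called 0 probes at 85 d beside 0.056% of all tested lower in Texel, 0 at 100 d beside 0.0%, and 10 at 120 d, all lower in Texel, beside 2.54%. At an unadjusted p under 0.05 there were 5 at 85 d, 9 at 100 d and 38 at 120 d. Of all 14275 tested probes, 1327, 1269 and 3116 had such a p at these stages. The methods' t-test gave 2, 1 and 3 at these stages at an unadjusted p under 0.05 with a 2-fold change, beside 132, 106 and 167 of all 14275. It gave 0 at each stage both with the methods' own, looser false discovery rate added and at an adjusted p under 0.05.

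The 10 probes lower in T120 than in U120 were of 8 genes, PRND, BAX, CSN2, APOA1, ASPM, LOC100101229, FGF18 and INHBA. PRND was called at both of its probes. BAX, LOC100101229 and INHBA also have 2 probes each on the list, which share 59 bases, and not all of these were called. PRND was lower by 2.63 (SE 0.58, adjusted p = 0.029) and 2.27 (SE 0.47, adjusted p = 0.023), CSN2 by 1.89 (SE 0.47, adjusted p = 0.0433) and ASPM by 1.65 (SE 0.39, adjusted p = 0.0358). APOA1 read 11.99, 9.94 and 10.70 in T120 and 12.83, 12.30 and 12.87 in U120, with no overlap. T120 replicate 1 was the array nearest to U120 for PRND, BAX, CSN2, ASPM and APOA1. It was on slide 3, and T120 replicates 2 and 3 were on slide 4 with the U120 arrays. The median over the 90 probes was 7.28 on that array, 6.63 and 6.74 on the other T120 arrays and 7.25 to 7.48 on the U120 arrays. Within slide 4, 67 of 90 probes were lower in Texel, beside 55.8% of all tested, with a median of -0.56.

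Without T120 replicate 1, 24 probes were lower in T120 and 2 higher, beside 8.46% and 5.11% of all tested. Without T120 replicate 2 there was 1 lower, beside 1.46%, and without T120 replicate 3 there were 1 lower and 1 higher, beside 1.44% and 0.539%. Without U120 replicate 2 there were 0, beside 0.168% lower, and 31 at an unadjusted p under 0.05, beside 2362 of all 14275. With sex as a covariate, 0 were called, beside 0.231% of all tested lower and 0.0981% higher. At an unadjusted p under 0.05 there were 37, beside 2388 of all 14275. Sex and breed cannot be told apart at 120 d alone, since the labels give 1 sex per breed. The leukocyte markers moved with the same arrays: the summed signal of 15 probes, in the same units, was 20.1 and 21.8 on T120 replicates 2 and 3, 5.82 on T120 replicate 1 and 5.33 to 6.71 on the U120 arrays. The satellite cell list, read by 2 probes of MYF5, gave 0.395 and 0.765 on T120 replicates 2 and 3, 1.16 on T120 replicate 1 and 0.967 to 1.63 on the U120 arrays. The cartilage and bone list gave 0.279 and 0.191, 0.393, and 0.334 to 0.452 on the same arrays. In the other marker lists T120 replicates 2 and 3 did not both lie on one side of the rest. The part of these cells in the breed difference was not tested. The change from 85 to 120 d differed between breeds for 0 of 89 probes by limma, beside 0.021% of all tested. At an unadjusted p under 0.05 it did for 19, beside 2151 of all 14275 tested. Without T120 replicate 1 there were 19 calls, 17 of them with the larger fall in Texel, beside 3.66% of all tested.

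**Figure D3:**
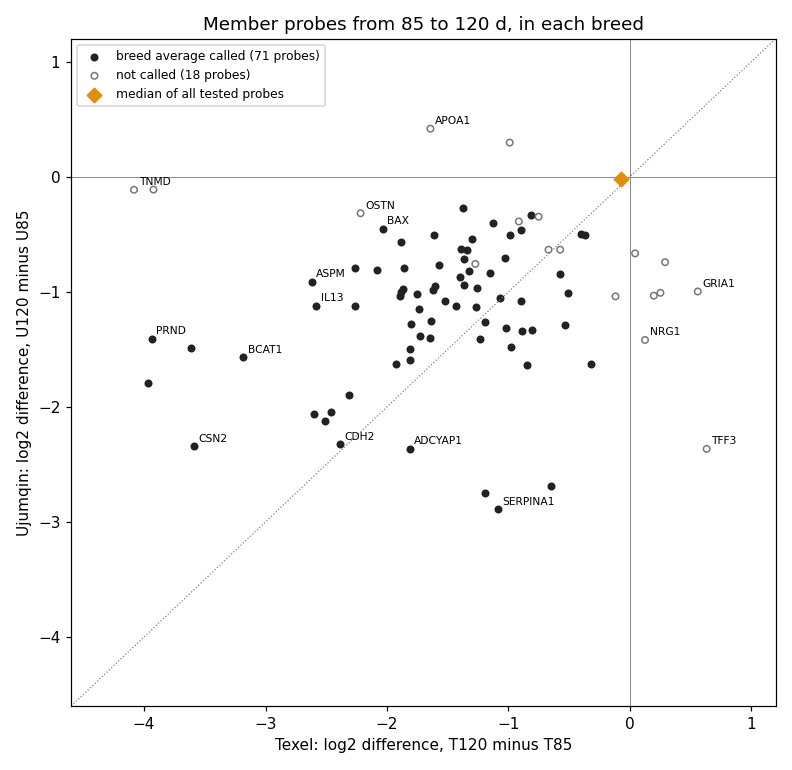
Log2 difference from 85 to 120 d in Ujumqin (vertical axis) against Texel (horizontal axis) for 89 probes, filled where the breed average was called (71) and open where it was not (18), with the median of all tested probes as a diamond near 0. Most points lie below and left of 0. TNMD, PRND and BCAT1 lie far to the left of the dotted line of equal change, SERPINA1 and TFF3 below it, and no difference between the breeds' changes was called.

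What the genes did after gestation was tested in Ujumqin sheep on the 12 arrays of 120 d, birth, 1 month and 2 months, where 85 probes of 62 genes were tested. Each of these groups was on a slide of its own, so stage and slide cannot be told apart in these comparisons. A fit over all 13 groups with slide as a block, chosen after seeing the data, called 8 of 90 probes lower at birth, beside 4.12% of all tested. From birth to 2 months it called 0, beside 0.124% lower, with 7 at an unadjusted p under 0.05, beside 1396 of all 14503. In that fit 2 of the probes called without the block turned direction at birth, those of CHRM3 and ISL1, and 7 did so from birth to 2 months, those of BCAT1 at both probes, APOA1, BGN, CLC5, LHB and MMP7. From U120 to birth 35 probes, 41.2%, fell and 8 rose, beside 28.4% and 26.0% of all tested, with a median of -0.69. From birth to 2 months 32 fell and 7 rose, beside 16.6% and 15.0%, with a median of -0.70. Leaving out 1 array ended 12 of the 43 calls at birth and 13 of the 39 after it. Both steps were called for 19 probes, the first alone for 24, the second alone for 20 and neither for 22.

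OSTN and BCAT1 had the largest differences at birth. OSTN read 9.43, 6.67 and 7.59 in U120 and was not well above background on any birth array. It was at least 22.1-fold lower at birth (adjusted p = 3.93e-04), and it was well above background on 1 of the 6 later arrays. BCAT1 read 9.29, 9.94 and 9.84 in U120 and 4.06, 5.27 and 5.60 at birth at its first-ranked probe, a fall by 4.71 (SE 0.47, adjusted p = 2.58e-05). At the other BCAT1 probe, which reads 8.61, 8.12 and 8.94 at birth, the fall was by 1.23 (SE 0.25, adjusted p = 0.00217), so the direction is shared and the size is not. SERPINA1 fell by 3.66 (SE 0.80, adjusted p = 0.00314) and 2.53. AT2 fell by 3.27 (SE 0.33, adjusted p = 2.99e-05) and 2.82, from 7.26, 7.49 and 7.69 in U120 to 3.85, 4.58 and 4.20 at birth at probe 1. IL1A was at least 6.19-fold lower at birth at probe 1 (adjusted p = 0.00383).

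The probe of BEGAIN was at least 3.67-fold lower at birth (adjusted p = 3.16e-04), whereas its other probe, which shares 59 bases, fell by 0.77 (SE 0.21, adjusted p = 0.0111). GRIA2 was at least 3.46-fold lower at birth (adjusted p = 0.0191), a call lost without U120 replicate 2 or birth replicate 1. ARNT2 was at least 1.93-fold lower at birth (adjusted p = 7.03e-05), and its other probe, with 59 shared bases, changed by -0.39 (adjusted p = 0.593). Growth factor genes fell again at birth in 5 of 7 probes, beside 41.2% of the 85 tested probes on the list. FGF18 fell from 10.29, 10.15 and 10.48 to 7.81, 7.67 and 8.12, by 2.44 (SE 0.33, adjusted p = 1.77e-04), FGFR1 by 1.42 and INHBA by 1.74 and 1.89. LOC100101229, tubulin-alpha, fell by 2.15 (SE 0.16, adjusted p = 5.47e-06) and 1.85. Of the 8 probes for genes of dividing cells, the 2 of BAX were called at birth, at -0.59 and -0.61, calls lost without U120 replicate 2 or birth replicate 3, and the other 6 were not. On the wider list for DNA replication and division 3 of 11 probes fell and 1 rose, beside 28.4% and 26.0% of all tested.

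The 8 probes that rose at birth were those of GCG, IL2, MTNR1A, ADCYAP1, CHRM3, GUCA2A, LHB and ISL1, most of them dim. GCG read 2.71, 3.67 and 2.97 in U120 and 5.13, 6.07 and 6.14 at birth, a rise of 2.66 (SE 0.42, adjusted p = 4.67e-04) from a group well above background on 1 of 3 arrays, and its other probe rose by 1.43 (adjusted p = 0.00113). MTNR1A was at least 2.55-fold higher at birth (adjusted p = 2.53e-04), ADCYAP1 at least 2.66-fold (adjusted p = 6.3e-04), CHRM3 at least 2.43-fold (adjusted p = 0.0194) and IL2 at least 2.17-fold (adjusted p = 0.00987). CHRM3 and IL2 were each well above background on 1 of 3 birth arrays. The call of CHRM3 was lost at a floor of 16, with normexp and without U120 replicate 2 or birth replicate 2 or 3, and it changed by -0.48 with slide as a block over 13 groups. That of IL2 was lost at a floor of 16, with normexp, in the deposited table and with that block. LHB, the only bright one, rose by 1.1 (SE 0.22, adjusted p = 0.00198), from 12.05, 12.65 and 13.07 in U120 to 13.78, 13.70 and 13.60 at birth. Its other probe rose by 0.99 (adjusted p = 0.00155). GCG, MTNR1A, ADCYAP1, CHRM3 and LHB then fell from birth to 2 months.

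From birth to 2 months 7 of the 8 probes grouped under dividing cells and the nucleus fell, the pair of BAX among them, beside 37.6% of the 85 tested probes on the list. On the wider list for DNA replication and division 7 of 11 fell and 0 rose, beside 16.6% and 15.0% of all tested, with a median of -0.71. ASPM read 8.80, 9.05 and 8.36 at birth, 5.94, 5.50 and 6.29 at 1 month and 6.51, 6.20 and 4.07 at 2 months, a fall by 3.15 (SE 0.52, adjusted p = 0.002), of which 2.83 came in the first month. TYMS fell by 2.30 (SE 0.41, adjusted p = 0.00347), LMNB1 by 2.13 and 1.71, BAX by 1.33 and 1.31 and AURKA by 1.25. PRND read 9.42, 9.26 and 6.40 at birth and 4.40, 5.49 and 5.09 at 1 month, and at 2 months it was at least 24.3-fold lower than at birth at its first-ranked probe (adjusted p = 8.26e-04). The other PRND probe changed by -1.1 (SE 0.43, adjusted p = 0.0812), from 9.23 and 7.69 on its 2 measured birth arrays to 7.08, 7.61 and 7.38 at 2 months.

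GJB2 read 7.37, 5.88 and 5.40 at birth and was at least 7.32-fold lower at 2 months (adjusted p = 8.28e-04). Another probe of GJB2, well above background on 39 of 40 arrays, rose by 2.02 at birth (adjusted p = 1.04e-05), where the listed probe changed by 0.00 (adjusted p = 0.997), and then fell by 0.95 (adjusted p = 0.003). PMCH fell by 1.98 and 1.92 and APOA1 by 1.98, while MMP7 was at least 1.5-fold lower (adjusted p = 9.76e-04). BCAT1 fell by 1.29 (SE 0.25, adjusted p = 0.00434) at its second-ranked probe and was at least 2.54-fold lower at the first-ranked one, where no array of 1 or 2 months was well above background. With slide as a block over 13 groups BCAT1 changed by 0.60 at the second-ranked and 0.59 at the first-ranked probe.

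The clearest rise after birth was in RGS2. At one probe it read 5.59, 6.02 and 5.42 at birth, 9.38, 7.61 and 6.44 at 1 month and 10.47, 10.33 and 9.40 at 2 months, a rise of 4.39 (SE 0.59, adjusted p = 7.6e-04). At the other, which shares 20 bases, it read 7.49, 7.51 and 7.56 at birth and 10.46, 10.25 and 9.37 at 2 months, a rise of 2.50 (SE 0.43, adjusted p = 0.00244). All arrays of 2 months lay above all arrays of 70 d for RGS2, whose highest reading there was 9.10 and 9.58 at the respective probes, except 1 array of 2 months at the second of them. FGF18 rose by 1.2 (SE 0.33, adjusted p = 0.0206), LPAR1 by 0.66 (adjusted p = 0.0439) and AT2 by 1.15 (SE 0.33, adjusted p = 0.0251) at probe 1, while AT2 changed by -0.14 (adjusted p = 0.876) at probe 2. These calls were lost under 5 of 24 alternatives for FGF18, without 2-month replicate 2 or birth replicate 1 or 2 among them, under 15 for LPAR1 and under 8 for AT2, without 2-month replicate 1 or 3 or birth replicate 1 or 3 among them. For LPAR1 they included leaving out each array but 2-month replicate 1. IL1A was at least 3.12-fold higher at 2 months than at birth at probe 1 (adjusted p = 0.0498), well above background on 1 of 3 arrays, a call lost under 17 of 24 alternatives. GRIA1 was below background in both groups, so its call of a rise has no fold.

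**Figure D4:**
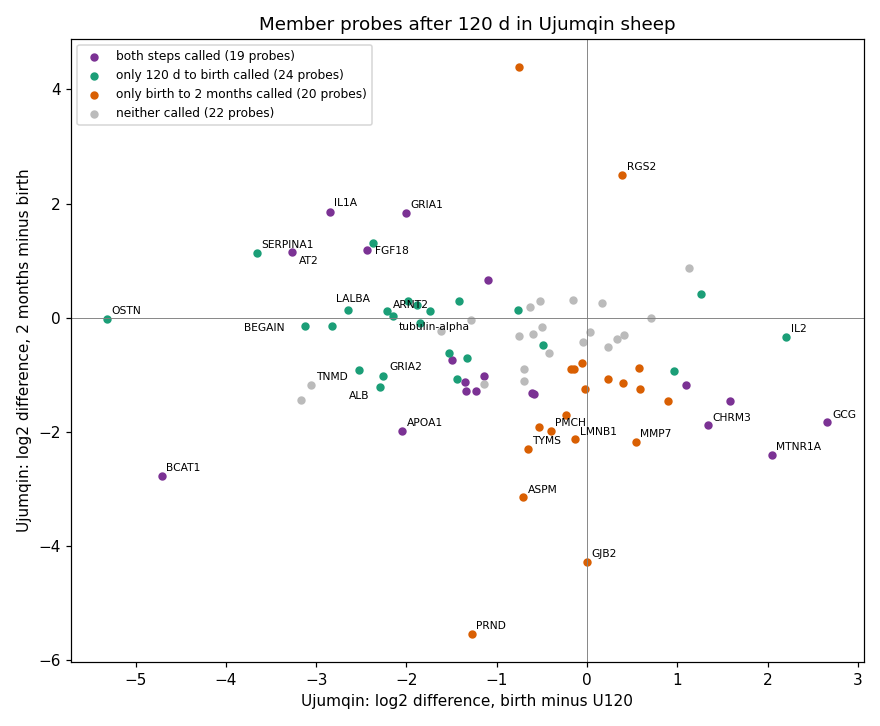
Log2 difference from birth to 2 months (vertical axis) against that from U120 to birth (horizontal axis) for 85 probes in Ujumqin sheep, coloured by which steps were called (19 both, 24 only the first, 20 only the second, 22 neither). OSTN and BCAT1 lie far left, RGS2 at the top, and PRND, GJB2 and ASPM at the bottom.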

How the data were processed

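RNA of 40 longissimus dorsi samples was measured on one-colour Agilent sheep arrays. Per the file headers, the authors' scans were read with Agilent Feature Extraction 10.5, which gave the deposited processed signal intensity and flags for each of 15208 gene spots (15008 probes). These other columns of the deposited scanner files, the flags for outlier spots and for spots well above background, were used as given. The series table holds log2 values that the authors deposited; set against the scanner intensities, its columns correlated at 0.99996 or more. It chose the genes and was otherwise an alternative. Its columns have a median of 8.64, so it is not centred.

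Outlier spots were dropped (8 values of these genes), spots of a probe averaged, arrays quantile normalized together, values floored at 1 and log2 taken. No probe's level was set against another's. limma 3.58.1 in R 4.3.3 fitted groups of breed and stage over 19 arrays of 85 to 120 d (14275 probes) and over 12 Ujumqin arrays from 120 d to 2 months (14040 probes), with Benjamini-Hochberg adjustment over all probes tested. An adjusted p under 0.05 is a call, and "fell" or "rose" is used of calls. Where a group was well above background on no array, the fold is a lower bound, and a group with only some dim arrays is given a plain difference. The bound sets the bright group's mean against a mean for the dim group. That mean takes, on each array, the higher of its own signal and the lowest signal well above background. The bright group's mean includes any of its arrays that were not well above background. The words "at least" refer to this rule, which is not a limit of detection, so a bound is approximate. Tables were made in Python 3.11.15 with numpy 2.4.6 and pandas 2.3.3 and figures with matplotlib 3.10.9.

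The genes, lists and tests were chosen with earlier results of these data known. Genes named with all values are those ranking first, with the largest and smallest falls, and with the largest changes after 120 d or between breeds; other genes of the list are given more briefly. Taken after the families were left out, the first 100 would hold 100 probes, all 90 of these among them. Of the 90 probes, 82 had a symbol in the RefSeq table used, and the others keep the name in the files. On simulated data for the fall from 85 to 120 d, 134 of 200 changed probes among 13859 were recovered (17 of 67 at a log2 change of 0.5, 56 of 67 at 1, 61 of 66 at 2) with 3 false calls. For the step from U120 to birth, 74 of 200 among 13833 were recovered (0 of 67 at 0.5, 22 of 67 at 1, 52 of 66 at 2) with 2 false calls. The simulated arrays had independent noise and no slide effect, so they cannot tell how slide bears on the calls. Only 200 probes were changed, while from 85 to 120 d 3102 fell and 2483 rose in the data. Recovery and false calls after adjustment depend on that number, so these counts need not hold for the data. The number of arrays limits the precision. Promoters were not analysed here, and 2 genes of the list are counted but not reported by name.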

Additional observations from a re-analysis of the deposited data

Results flagged for a closer look

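In the group of 4 arrays at T100, replicate 4 of AT2, the angiotensin II type 2 receptor, stood apart at probe 1, at 8.62 against 8.74, 8.75 and 8.76 on the others. Its gap to the nearest was 0.856 of the range, past the 95% limit of Dixon's test. It was the 1 probe of 28 tested to do so, and chance marks about 1 in 20 groups.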

How the results depend on the processing

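With slide as a fixed block, 0 probes were called lower from 85 to 120 d on average, in Texel and in Ujumqin, 0 from 85 to 100 d and 7 from 100 to 120 d. In 1 fit over all 13 groups with that block, chosen after seeing the data, the counts were 1, 1, 1, 0 and 6, with 8 for breed, 8 at birth and 0 from birth to 2 months. There CHRM3 changed by 0.13 from 85 to 120 d (also 0.13 with the block in 19 arrays) and by -0.48 at birth, and BCAT1 by 0.60 and 0.59 from birth to 2 months. The cause was not tested. With slide as a random block, 67 fell on average. Slide could not be a block in the 12 lamb and U120 arrays alone. Sex as a covariate gave 22 falls in Ujumqin from 85 to 120 d, beside 3.6% of all tested. It gave 30 at birth, beside 27.0%, and 25 from birth to 2 months, beside 14.5%. A 2-fold threshold gave 8 falls from 85 to 100 d, 15 from 100 to 120 d and 0 breed differences. Breed differences numbered 4 after normexp, 1 with a stricter filter and 0 with a replicate block, and the methods' t-test gave 1 at 100 d and 0 at each stage after adjustment, also 0 with the methods' own false discovery rate, added after seeing the data. A floor of 16 and normexp each gave 1 probe whose change differed between breeds.

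Leaving out 1 array gave 67 to 75 falls on average, 50 to 66 in Texel, 23 to 50 in Ujumqin (23 without U85 replicate 1 or 2), 15 to 33 from 85 to 100 d, 32 to 53 from 100 to 120 d, 0 to 26 breed differences (26 without T120 replicate 1), 0 to 19 differing changes, 34 to 45 calls at birth and 29 to 40 from birth to 2 months. Samples with the same replicate number did not deviate together (median correlation -0.022, 3 of 45 above 0.1), and the replicate block gave 70 falls on average. Of 3178 results for single probes over the alternatives, 2974 kept direction and side of the threshold, 162 lost the call, 37 gained it and 5 reversed.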
